A study of Drosophila melanogaster with 3 samples.

Results

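Of the 10483 reproducible peaks of the Row protein in Drosophila melanogaster embryos, 717 (6.84%) had their summit between genes and 1 to 5 kb from the nearest start of a protein-coding gene. A peak was taken when its summit lay inside no annotated gene of any kind and the nearest protein-coding transcription start site (TSS) was over 1000 bp and at most 5000 bp away. Within the list, position alone chose these peaks. The list itself holds peaks at an irreproducible discovery rate (IDR) of 0.01 or less, a threshold that depends on signal. All bases of the genome that meet the same rule add up to 10.4 Mb, or 7.53% of the 7 chromosome arms. These bases serve as the background for position and sequence below.

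The data were chromatin immunoprecipitation with sequencing (ChIP-seq) on a single group of whole embryos, aged 0 to 24 h, of a fly line with a row-GFP insertion that makes a Row-eGFP fusion, precipitated through the GFP tag. The 3 biological replicates came from separate biosamples of the same line, there was no second condition, and embryos of all cell types and ages were mixed. Sonicated chromatin was 200 to 800 bp long. Read numbers are unknown, so the length of a list is the only measure related to depth, and by their own thresholded lists replicate 1 held 10959 peaks on the 7 arms, replicate 2 held 8564 and replicate 3 held 7608. The 717 peaks come from the conservative list, made from replicates 1 and 2. In the pooled ranked list 99.3% of them recur with identical position and value, so their deposited signal is that of a pool. Each replicate's own list is given beside it.

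Row takes its name from woc, to which it is related. It has zinc fingers and is known as a partner of the WOC protein and of HP1c, a heterochromatin protein 1 family member found in euchromatin. This group of proteins is best known from the promoters of active genes. In fly genomes, sequence a few kilobases upstream of a gene commonly holds enhancers, silencers such as Polycomb response elements, insulators or the promoters of non-coding RNAs.

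The sequences at the summits of 7 of the 10 strongest peaks are shown first, because 6 of them share stretches made of A and T only. Each is the plus strand of assembly dm6 from 60 bases before to 60 after the summit, written 5′ to 3′ under the symbol of the nearest gene, with A/T-only runs of 8 or more bases in capitals. One flank, 1000 bp from the tara summit, is given too. It was 42.1% A+T, while the flanks of all these intergenic peaks together were 41.2% G+C. This flank is thus richer in G+C than flanks in general.
tara summit, chr3R:16222426-16222546: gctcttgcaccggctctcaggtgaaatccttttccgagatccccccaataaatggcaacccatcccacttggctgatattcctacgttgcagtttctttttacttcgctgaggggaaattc
tara flank, chr3R:16223426-16223546: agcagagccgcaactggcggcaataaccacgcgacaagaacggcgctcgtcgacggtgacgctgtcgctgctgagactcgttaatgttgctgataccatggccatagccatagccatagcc
CG31668 summit, chr2L:2202346-2202466: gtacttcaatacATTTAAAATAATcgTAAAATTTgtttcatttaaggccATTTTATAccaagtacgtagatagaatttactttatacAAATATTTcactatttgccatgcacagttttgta
foxo summit, chr3R:14053533-14053653: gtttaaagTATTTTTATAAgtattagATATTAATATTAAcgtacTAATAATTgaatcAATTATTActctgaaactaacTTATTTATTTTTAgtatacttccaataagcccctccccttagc
DNAlig3 summit, chr3R:12403074-12403194: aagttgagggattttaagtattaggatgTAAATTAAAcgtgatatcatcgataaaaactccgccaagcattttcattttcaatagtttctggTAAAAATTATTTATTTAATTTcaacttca
Hex-A summit, chrX:9583861-9583981: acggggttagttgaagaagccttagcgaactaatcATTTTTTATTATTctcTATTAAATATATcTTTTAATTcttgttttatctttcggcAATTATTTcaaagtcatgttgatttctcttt
stck summit, chr3R:8355680-8355800: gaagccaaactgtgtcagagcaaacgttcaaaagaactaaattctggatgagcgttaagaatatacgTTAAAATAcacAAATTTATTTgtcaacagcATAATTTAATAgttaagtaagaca
CG5953 summit, chr2L:16535911-16536031: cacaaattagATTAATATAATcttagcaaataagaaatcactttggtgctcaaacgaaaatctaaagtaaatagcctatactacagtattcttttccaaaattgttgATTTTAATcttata
The windows at CG31668 and foxo were 74.4% and 76.0% A+T, and 36 and 53 of their 121 bases lay in such runs. The window at DNAlig3 held the longest run, of 21 bases. In windows of 201 bp the median longest run was 12 bases at the summits of all these intergenic peaks. It was 10 bases over all windows that meet the rule, so runs of 8 bases are common in the background too. The strongest peak of all, at tara, had no run of 8 bases and was 51.2% A+T, so strength and A/T content did not go together at every site.

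The A/T content of the group as a whole was high at the summit and fell off within about 100 bp. G+C was 34.8% in the 201 bp around the 717 summits, against 41.2% in the flanks 1000 bp to both sides and 41.0% over all 48377 windows of the same length that meet the rule. In the replicates' own lists the difference was -6.10, -7.66 and -7.12 percentage points (mean -6.96 ± 0.79, SD, n = 3), so that it was several times the spread between replicates and had the same direction in each. With 3 replicates an exact two-sided sign-flip test cannot give a p below 0.25, and it gave that value here. The lowest 50 bp bin, just left of the summit, had 31.8% G+C, and between 150 and 200 bp to its right the value was 45.0%. The peaks in genes beyond 1 kb had nearly the same difference (-6.02 points), intergenic peaks beyond 5 kb had -6.64 points, and promoter peaks, with a summit within 500 bp of a TSS, had -8.93 points.

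An A/T-only run of at least 15 bases, a length chosen after the sequences had been seen, lay in 235 of the 717 windows (32.8%), against 17.2% of the flanks and 17.4% of all windows that meet the rule. In the replicates the share at the summit averaged 33.6 ± 1.8%, against 17.9 ± 0.8% in the flanks (SD, n = 3, exact two-sided sign-flip p = 0.25, the smallest possible). Such a run was as frequent at other Row peaks, in 34.7% of promoter windows, 31.2% in genes beyond 1 kb and 31.6% between genes beyond 5 kb. The 7-base word with the largest difference was AAAATAT, read on both strands, in 31.8% of the summit windows, against 16.1% of the flanks and 17.0% of the background windows. It was in 30.4% of the promoter summit windows, a share close to that of the intergenic peaks.

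**Figure D1:**
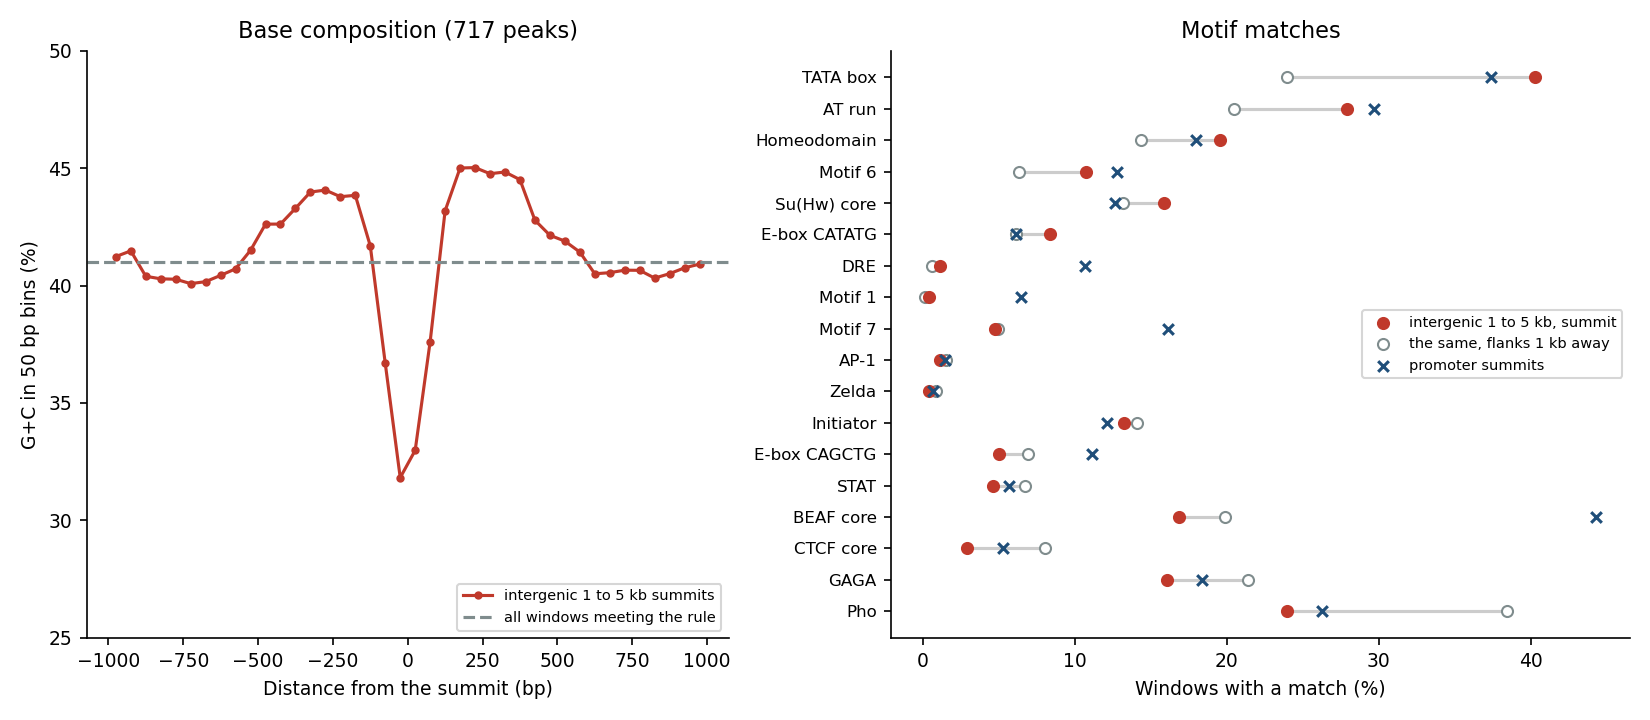
Left, percent G+C in 50 bp bins against the distance from the summit, for the 717 intergenic peaks, with all windows that meet the rule as a dashed line; right, the percent of 201 bp windows that hold each motif, at the intergenic summits (filled circles), in their flanks 1 kb away (open circles) and at promoter summits (crosses). G+C falls to 31.8% beside the summit, and the crosses for DRE, Motif 1, Motif 7 and the BEAF core lie far to the right of the circles.

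Short motifs were then counted on both strands in the same windows, each as the exact letters given, where N is any base. Of 18 motifs, 8 were in a higher share of the summit windows than of the flanks, and 6 of these were higher in all 3 replicates. A single short word is found often in A/T-rich sequence, and base composition moves with these counts; its part in them was not tested. TATAAA, the TATA box, had the largest difference, with matches in 289 windows (40.3%), against 24.0% of the flanks and 23.3% of the background windows. Its difference in the replicates was 16.2 ± 1.6 points (SD, n = 3). Other Row peaks had similar shares of TATAAA, 37.4% at promoters, 37.8% in genes beyond 1 kb and 40.1% between genes beyond 5 kb. AAATTT was in 27.9% of the summits, against 20.5% of the flanks. TAATTA, a site of many homeodomain proteins, was in 19.5% of the summits, against 14.4% of the flanks. Motif 6 of housekeeping promoters, GTATNTTT, was in 10.7% of the summits, against 6.35% of the flanks.

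Other motifs were less frequent at the summits. GCCAT, the core of the element of Pleiohomeotic (Pho), a DNA-binding Polycomb group protein, was in 24.0% of the summits, against 38.4% of the flanks and 38.1% of the background windows. AGGNGGC, the core of the site of the insulator protein CTCF, was in 21 summits (2.93%), against 8.02% of the flanks. GAGAG, bound by GAGA factor, was in 16.0% of the summits, against 21.4% of the flanks. These 3 motifs were lower than in the flanks in all 3 replicates.

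Several motifs of housekeeping promoters were in fewer windows at the intergenic peaks than at Row peaks at promoters. The DRE, TATCGATA, bound by the factor DREF, was in 8 of the intergenic windows (1.12%), against 10.7% of the windows at the 4541 promoter summits. In the replicates the shares were 1.42 ± 0.36% at intergenic and 10.5 ± 0.7% at promoter summits (SD, n = 3), with a difference of -9.13 ± 0.66 points. Motif 1, GGTCACAC, was in 3 intergenic windows (0.418%), against 6.45% of promoter windows, and Motif 7, CANCNCTA, in 4.74%, against 16.1%. CGATA, the core of the site of BEAF-32 and part of the DRE itself, was in 16.9% of intergenic windows, against 44.3% of promoter windows. The E-box CAGCTG was in 5.02% of intergenic windows, against 11.2% of promoter windows, and for Motif 6 the shares were closer (10.7%, against 12.8%). Each of these 6 differences had the same sign in all 3 replicates (exact two-sided sign-flip p = 0.25, the smallest possible). For the DRE the intergenic share was still above that of its own flanks (0.628%) and of all windows that meet the rule (0.310%), on 8 matches. The low shares were not particular to these peaks. At peaks in genes beyond 1 kb the DRE was in 0.647%, Motif 1 in 0.478%, Motif 7 in 5.68% and CGATA in 20.1% of windows. At intergenic peaks beyond 5 kb the shares were 0.783, 0.522, 5.74 and 16.7%. The classes were set by distance from a TSS, and promoters without a Row peak were not counted. Whether the differences from promoter peaks are particular to Row peaks was therefore not tested.

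The matches nearest to the summit are shown for the 3 strongest intergenic peaks with TATAAA and the 3 strongest with a DRE. These carry the leading motif and the promoter motif that is rare here. Peaks on an arm whose sequences are not shown were left out. Capitals mark the match, and TTTATA is TATAAA on the other strand.
CG31668 TATAAA, chr2L:2202385-2202414: atttaaggccatTTTATAccaagtacgtag
foxo TATAAA, chr3R:14053533-14053562: gtttaaagtattTTTATAagtattagatat
CG34112 TATAAA, chr3R:4395266-4395295: agacatttgtcaTATAAAtctcgacggctt
mRpS5 DRE, chr3L:24536167-24536198: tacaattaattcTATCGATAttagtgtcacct
RpS3A DRE, chr4:63456-63487: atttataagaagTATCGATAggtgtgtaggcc
CG3168 DRE, chrX:6741259-6741290: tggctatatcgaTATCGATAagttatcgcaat
The DRE matches lay at 3 peaks that were listed in all 3 replicates, near mRpS5 and RpS3A, which encode proteins of the mitochondrial and the cytosolic ribosome, and near CG3168. Their signal values of 576, 530 and 433 ranked 2586, 2837 and 3548 in the list of 10483.

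The intergenic peaks were weaker than the typical Row peak. Their median deposited signal, the caller's enrichment value, was 214, against 280 for the whole list. It was 397 for promoter peaks, 227 for peaks in genes beyond 1 kb and 214 for intergenic peaks beyond 5 kb. In the replicates' own lists the ratio of the medians, intergenic to whole list, was 0.884, 0.834 and 0.772 (mean 0.830 ± 0.056, SD, n = 3, below 1 in all 3, exact two-sided sign-flip p = 0.25, the smallest possible). Of the 717 peaks, 26 (3.63%) were among the strongest 10% of the list and 113 (15.8%) among the strongest 25%. At the weak end, 29 peaks had a signal under 20, and 28 of these overlapped a stronger peak of the list. In all, 64 of the intergenic peaks (8.93%) overlapped a stronger peak, against 8.73% of the whole list.

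Fewer of them were found in every replicate. Across the whole list, 62.1% of the peaks overlapped a thresholded peak of all 3 replicates, and among the intergenic peaks 344 did (48.0%, exact 95% interval 44.3 to 51.7% for counting error only). The share was 74.3% for promoter peaks, 52.6% for peaks in genes beyond 1 kb and 49.0% for intergenic peaks beyond 5 kb. A further 162 intergenic peaks were in 2 replicates (22.6%, against 17.8% of the whole list), 138 in 1 (19.2%, against 13.5%) and 73 in none (10.2%, against 6.71%). Replicate 1 listed 592 of the peaks (82.6%, against 87.5% of the whole list), replicate 2 listed 499 (69.6%, against 78.1%) and replicate 3 listed 403 (56.2%, against 69.6%), in the order of the lengths of their lists. Replicate 3 also had no part in making the conservative list, and this cannot be told apart from list length. With the list of replicates 1 and 3, 55.5% of the intergenic peaks were in all 3, against 65.3% of that whole list. Signal moves with these shares. When the whole list was cut by signal into 4 equal bins, 6.25% of the intergenic peaks in the lowest bin were in all 3 replicates, against 14.0% of the other peaks there. In the second bin it was 37.4%, against 44.1%, in the third 91.1%, against 91.9%, and in the highest bin 100%, against 99.7%. Of the 73 peaks found in no replicate, 72 were in the lowest bin. Against the replicates' longer lists before any threshold, 93.3% of the intergenic peaks were in all 3, and of the 410 peaks at an IDR of 0.001 or less 80.5% were, against the thresholded lists. For the whole list these shares were 94.7% and, over its 6950 peaks at that IDR, 86.5%, and the stricter IDR kept 57.2% of the intergenic peaks, against 66.3% of the whole list. The conservative list was made from replicates 1 and 2. Overlap with the longer lists of these replicates was therefore largely fixed in advance, and the 93.3% is no independent measure of agreement.

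**Figure D2:**
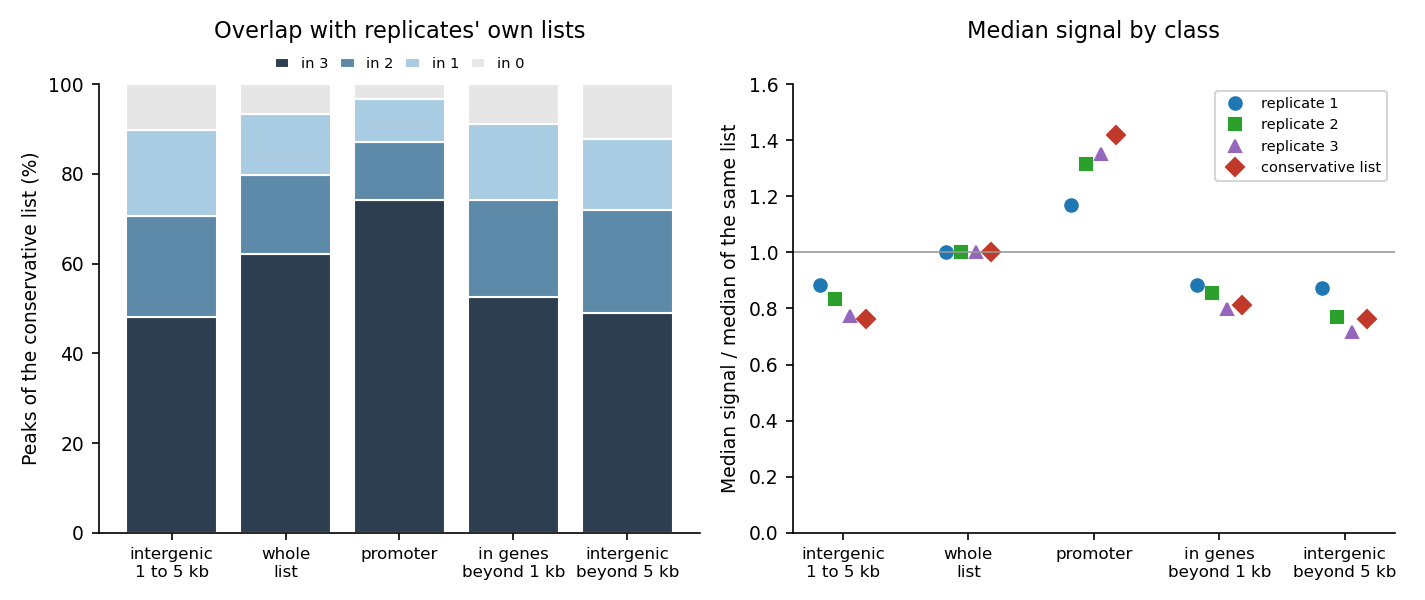
Left, the percent of peaks of the conservative list that overlap a thresholded peak in 3, 2, 1 or 0 replicates, by position class; right, the median signal of each class divided by the median of the same list, for each replicate and the conservative list, with points set side by side for legibility. The intergenic peaks 1 to 5 kb away have 48.0% in all 3 replicates, against 62.1% of the whole list, and their relative medians lie below 1 in every list.

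The peaks were somewhat less dense than Row peaks over the genome as a whole. There were 69.2 summits per Mb of sequence that meets the rule, against 76.2 per Mb over the 7 arms, a ratio of 0.908. In the replicates the ratio was 0.807, 0.887 and 0.759 (mean 0.818 ± 0.065, SD, n = 3), below 1 in each (exact two-sided sign-flip p = 0.25, the smallest possible). Within the range of the rule the density was not even. Upstream of the nearest TSS and at most 2000 bp away there were 231 summits, or 95.4 per Mb, against 53.6 per Mb (47 summits) on the downstream side at the same distance. Replicates 1, 2 and 3 had 85.5, 73.9 and 57.8 per Mb upstream, against 50.2, 43.3 and 31.9 per Mb downstream, so upstream was higher in each. From 3500 to 4000 bp the order was the other way, 44.2 per Mb upstream, against 75.1 downstream, and downstream was higher in all 3 replicates too. From 2500 to 3000 bp it was 52.7 per Mb upstream, against 58.4 downstream, in the conservative list, while in each replicate upstream was higher.

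On both sides together, 509 of the 717 summits (71.0%) lay upstream, against 65.7% of the sequence that meets the rule. The shares in the replicates were 70.1, 69.8 and 72.2%, each above the 65.7% of the background, by 4.96 ± 1.31 points on average (SD, n = 3, exact two-sided sign-flip p = 0.25, the smallest possible). The median distance to the TSS was 2417 bp, against 2663 bp for the background. Divergent gene pairs, which face away from each other, flanked 35.4% of the peaks, against 29.8% of the background sequence, and this was 35.5 ± 2.1% in the replicates. Convergent pairs flanked 15.5%, against 18.3%. The 3 peaks nearest to the inner limit lay 1002 bp from CG10939, 1003 bp from CG30002 and 1007 bp from ex, while ph-d, Sumo and CG17746 had summits just outside it, at 999, 998 and 992 bp. At the outer limit, Dad, Tollo and CG13707 had summits at 4989, 4980 and 4963 bp, and tei, exex and Eglp2 just outside at 5013, 5016 and 5029 bp.

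**Figure D3:**
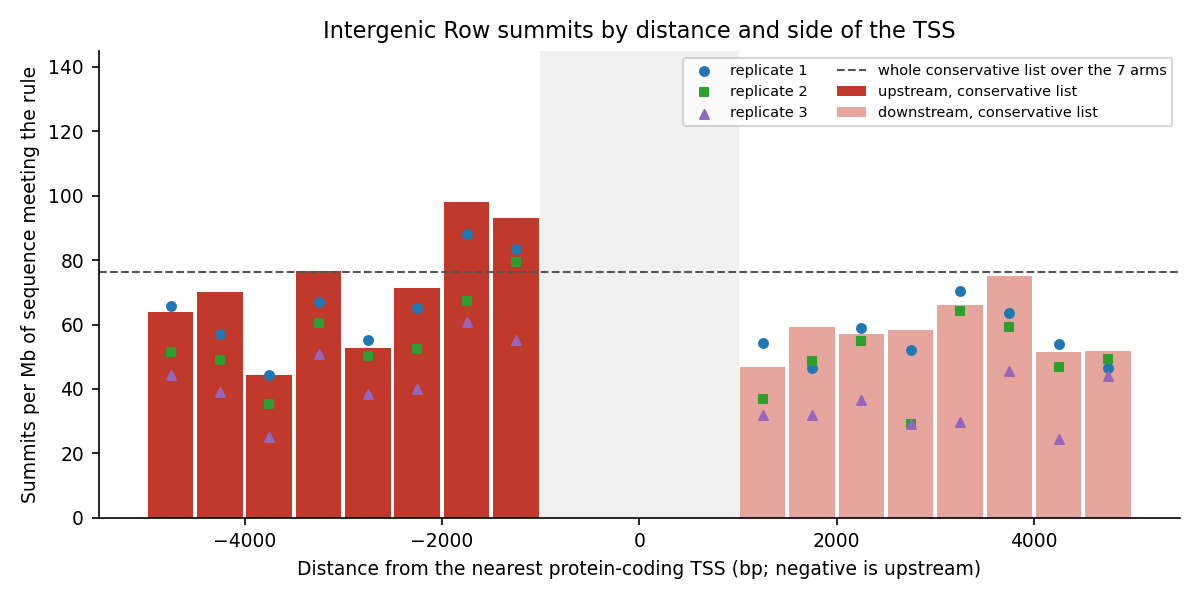
Intergenic Row summits per Mb of sequence that meets the rule, in 500 bp bins of distance from the nearest protein-coding TSS; bars give the conservative list, points the replicates' own lists, the dashed line the whole list (76.2 per Mb) and the grey band the excluded 1000 bp. The 2 bins just upstream of the band are the highest bars (93.2 and 98.2 per Mb), above the bins at the same distance downstream.

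Some of these peaks lay near the start of a non-coding RNA gene. The rule does not use these starts, but it leaves out summits inside such genes, and the background leaves out the same sequence. With protein-coding gene bodies only, 818 peaks met the rule. A TSS of such a gene was within 500 bp of 53 summits (7.39%), against 2.60% of the background sequence, and in the replicates the share was 7.95 ± 0.48% (SD, n = 3). These 53 peaks had a median signal of 352, against 209 for the others. The strongest was the peak near Psc, 161 bp from the start of lncRNA:CR44339. It was followed by the peak near Hex-A, 256 bp from lncRNA:CR45541, and the peak near CG34112, 235 bp from asRNA:CR45999. Summits within 500 bp of the 3′ end of a protein-coding gene were 9.76% of the peaks, against 10.2% of the background. Their share was 11.9% in replicate 1, above the background, and 8.04% and 8.28% in replicates 2 and 3, below it. Edges of annotated transposable elements were near 17 peaks (2.37%), against 4.14% of the background.

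The 541 different nearest genes were compared with the 4938 protein-coding genes that are nearest to at least 1 base of such sequence. Of all 4938 genes, 25.7% had a Row summit within 500 bp of a TSS. Among the nearest genes of the intergenic peaks 180 did (33.3%). The difference was 10.1, 1.35 and 5.02 points in replicates 1, 2 and 3 (mean 5.48 ± 4.37, SD, n = 3, exact two-sided sign-flip p = 0.25, the smallest possible), so its size was close to the spread between replicates. Without replicate 1 the mean was 3.19 points, and over the peaks at an IDR of 0.001 or less the difference was 3.22 points. Where the nearest gene had a promoter summit, as for 225 of the peaks, the intergenic peak was the stronger in 60. The median signal there was 206 for the intergenic peak, against 488 for the promoter peak.

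The strongest intergenic peak (chr3R:16221967-16222729) lay 3165 bp upstream of tara, between mtSSB and tara. The tara gene encodes Taranis, a trithorax group protein that also acts in the cell cycle. Its signal was 1914, 2058 and 1799 in replicates 1, 2 and 3, against medians over the whole lists of 100.1, 123 and 119, and its ranks there were 18, 20 and 13. The pooled value of 5878 had rank 14 of 10483. The second (chr2R:12984980-12985440) lay 4212 bp upstream of Psc, which encodes a subunit of Polycomb repressive complex 1, between Psc and CG33798. It had 1942, 2262 and 1534 in the replicates with ranks 16, 15 and 28. Neither gene had a Row summit within 500 bp of a TSS.

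The third (chr2R:22802720-22803199) lay in the 1.34 kb between the ends of blw and CycB, the gene of the mitotic cyclin B, and 3341 bp downstream of the CycB start. Its signal was 1321, 1399 and 1299 in the replicates, and all of these were over 10 times the median of their list. The fourth (chr2L:2202195-2202628), with 823, 864 and 655, lay between COX7AL2 and CG31668. The fifth (chr3R:14053390-14053777) lay 3352 bp upstream of foxo, the gene of the FOXO factor of the insulin pathway, between CG9922 and foxo, with 604, 837 and 597. Its pooled value of 2044 was above that of the promoter peak of foxo (365). Another intergenic peak, 4588 bp upstream of foxo, had a pooled value of 828.

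The other peaks among the 10 strongest lay near genes of varied roles. The peak at DNAlig3 (chr3R:12402940-12403325), a DNA ligase gene, lay in the 0.437 kb between Sol1 and Cyp9f2 and had 822, 655 and 551 in the replicates. The peak 1754 bp upstream of Hex-A (chrX:9583718-9584142), a hexokinase gene, had 520, 666 and 649 and lay between LPCAT and Hex-A. The peak upstream of stck (chr3R:8355522-8355933), whose product PINCH acts at integrin adhesions, had 633, 604 and 518 and lay between Atg13 and stck. The peak at CG5953 (chr2L:16535747-16536152), between CG5953 and CG31816, had 724, 674 and 342, and the value of replicate 3 stood below the others. The last of the 10 (chr2R:12958011-12958433), between CG13321 and Psc, had 534, 619 and 475. All 10 were listed in all 3 replicates.

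**Figure D4:**
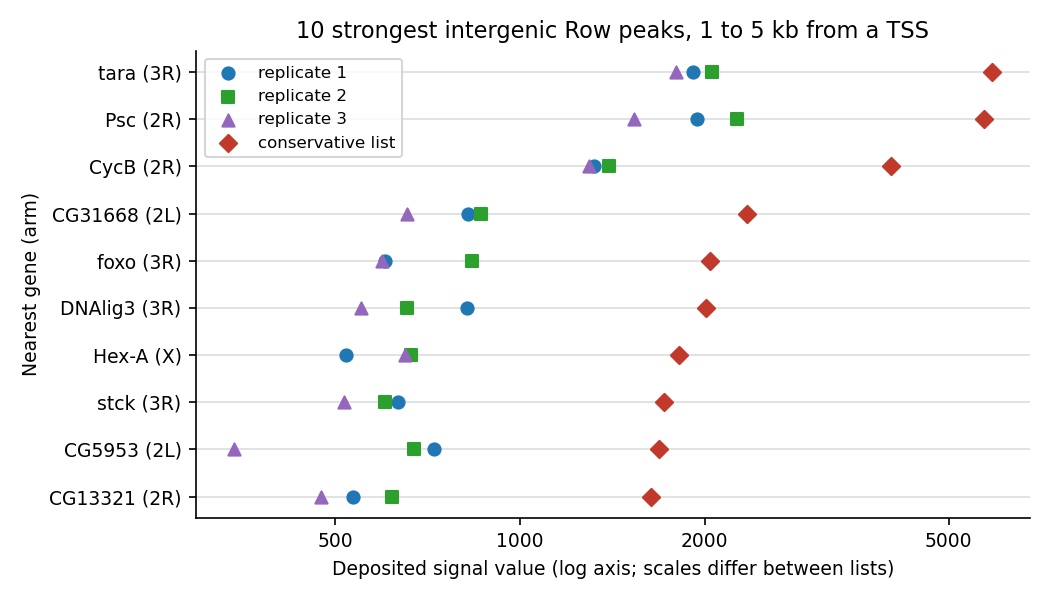
Deposited signal value, on a log axis, of the 10 strongest intergenic peaks 1 to 5 kb from a TSS, in each replicate's own list and in the conservative list, whose values come from a pool and have another scale. The peaks at tara, Psc and CycB are the highest in all 3 replicates, from 1299 to 2262.

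By arm, 168 of the peaks lay on 3R, 161 on 3L, 139 on 2L, 126 on X, 119 on 2R and 4 on chromosome 4, with none on Y. Per Mb of sequence that meets the rule the densities on the 5 large arms were 64.4 to 83.6, highest on X, where the whole list was also densest (95.6 per Mb of the arm). The strongest peak on X was that at Hex-A, and on 3L the one between hng3 and CG13898 with a signal of 1544. On chromosome 4 the strongest lay between fuss and toy, 4460 bp upstream of fuss, with 871.

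Some of the peaks lay close to each other. The counts that follow were made for the intergenic peaks only, so they do not show whether other Row peaks lie as close together. The 717 peaks lay in 497 gaps between genes, and 375 of them shared their gap with at least 1 other. Of the peaks, 186 had another within 1000 bp, and 14 shared 7 intervals with 2 summits each, so that they are not independent of each other. The replicate value of a peak is that of the strongest overlapping peak, which such neighbours can share. The gap of 6.79 kb between NimC3, a gene of a phagocytosis receptor family, and hll held 6 peaks, 4 of them in all 3 replicates and the strongest at 1484. The gap between the gustatory receptor genes Gr93a and Gr93b also held 6, none of them in all 3 replicates and the strongest at 226. The gap between slf and CG15629 held 5, 3 of them in all 3 replicates and the strongest at 1490, and the gap between lola and psq, a pair of genes of BTB-domain transcription regulators, held 5 with 1 in all 3 replicates. The gap between CG43131 and RabGGTa held 4, of which 1, at 1437, was in all 3 replicates.

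The nearest genes were set beside 19 lists of genes. These lists were chosen with earlier results of these data known. Some share genes, such as foxo, Thor, CycB and fz, so the lists are not independent of each other. As background, 541 of the 4938 genes that could be nearest (11.0%) had at least 1 of the peaks. Of the 18 lists with such genes, 13 were above this share, and 10 were above the background of every replicate as well (10.4, 9.44 and 7.45%). The counts are small, and a gene with more intergenic sequence has more room for a peak, so peaks per Mb of the list's own sequence were counted too, beside 69.2 per Mb overall. By this measure insulin and TOR pathway genes had 444 per Mb, mitochondrial ribosomal protein genes 347 and histone and cell cycle genes 307, on 3, 2 and 3 peaks. Germline and early embryo genes had 159, stress genes 123, mesoderm genes 117, axon guidance genes 102 and cytosolic ribosomal protein genes 93.4. Circadian genes (65.2), neural and eye factors (56.7), cytochrome P450 genes (54.8), cuticle protein genes (49.5) and ecdysone response genes (34.5) were below the overall density.

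In the conservative list, genes of signalling pathways had the highest share, 12 of 29 (41.4%), with 15 peaks or 200.1 per Mb. Their share was 37.9, 37.9 and 31.0% in replicates 1, 2 and 3. It was below that of Polycomb and trithorax group genes in each (38.5, 46.2 and 38.5%), and below that of insulin and TOR pathway genes in replicate 3 (33.3%). The 3 strongest peaks of the signalling genes were at aop, the Ets repressor Yan of the EGF receptor pathway (766), at fz, a Wnt receptor (733), and at Dad, an inhibitor of the Dpp pathway (486). They lay 1532, 1771 and 1060 bp upstream, and each was in all 3 replicates. The peak at aop had 295, 256 and 227 in replicates 1, 2 and 3. Both giant cadherin genes of the Fat pathway had a peak in all 3 replicates, ds with a signal of 377 and ft with 366. The ligand genes had weaker ones. The peak at dpp (298) was in all 3 replicates, the peak at upd2 (233) in 2, and those at hh (220) and wg (138) were in 1.

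Polycomb and trithorax group genes had 5 of 13 (38.5%, 38.5, 46.2 and 38.5% in the replicates), with 9 peaks or 391 per Mb, and these included the 2 strongest peaks of all. Beside tara and Psc they were jing (494, in all 3 replicates), lola (217) and psq, which alone had 4 peaks of at most 199.7. The genes lola and psq flank the same gap of 14.6 kb, which held 5 peaks, 1 of them in all 3 replicates. The density of this list rests on 22.99 kb of sequence that meets the rule. Of the 9 peaks, 2 overlapped a stronger one, and their nearest genes, tara and psq, had other peaks as well. Insulin and TOR pathway genes had 2 of 6, foxo and Thor, the gene of the translation repressor 4E-BP, whose peak 2332 bp upstream had 614. The same genes and rpr, the cell death activator Reaper (833, 4420 bp upstream), made up the 3 of 19 stress genes.

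Among developmental regulators the shares were lower. Mesoderm, muscle and heart genes had 5 of 24 (20.8% in the conservative list and in every replicate), with bin, a forkhead factor of the visceral mesoderm (900), how (526), Doc2 (463) and kon (449). Axon guidance and adhesion genes had 6 of 23 (26.1%), with fz, comm2 (438), robo2 (314) and caps (158), but 13.0% in replicate 3. Segmentation and Hox genes had 5 of 33 (15.2%), at 51.9 per Mb, below the overall density. Their strongest peak, 4321 bp upstream of the pair-rule gene slp2, had 1563, and slp1 had 443, hry 307 and bcd 289. Neural and eye transcription factor genes had 5 of 29 (17.2%) in the conservative list but were below the background in all 3 replicates (6.90 to 10.3%). The peak upstream of chinmo (1401) was in all 3 replicates, nerfin-1 had 432, and the peaks at esg (136) and B-H1 (124) were in 0 replicates and in 1.

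For growth genes the counts were 5 of 35 cytosolic ribosomal protein genes (14.3%), 2 of 11 mitochondrial ones and 3 of 13 histone and cell cycle genes. The mitochondrial share was 18.2, 18.2 and 9.09% in replicates 1, 2 and 3, above the background of each. The histone and cell cycle share of 23.1% was 15.4, 7.69 and 7.69% in the replicates, below the background in replicate 2. At RpS23 (747) and RpS3A (530) the peak lay downstream of the TSS and beyond the gene. RpL10Aa (140) had a weaker one. The mitochondrial ones were mRpS5 (576) and mRpL21 (183), and the cell cycle genes were CycB, Myc (151) and E2f2 (149.6). CycB and zld (251), the gene of the pioneer factor Zelda, were the 2 of 7 germline and early embryo genes. The circadian gene dco (158) was 1 of 8 and the ecdysone response gene Ldh (125) 1 of 13. No gene of HP1, Row and other heterochromatin proteins is next to sequence that meets the rule, and none of the 3 insulator and core promoter factor genes had a peak.

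The large families of terminal genes were below the background in the conservative list. Odorant, gustatory and ionotropic receptor genes had 9 of 99 (9.09%), with 18 peaks or 67.2 per Mb, of which those at Gr93a (up to 757), Ir94a (487), Gr93d (439) and Gr89a (378) were the strongest. Their share was 7.07, 11.1 and 7.07% in replicates 1, 2 and 3, above the background in replicate 2. Cuticle protein genes had 5 of 70 (7.14%), with Cpr100A (749), Cpr65Eb (344), Cpr51A (311) and Cpr67Fa1 (142), and were below the background in all 3 replicates. Cytochrome P450 genes had 3 of 32 (9.38%), Cyp6v1 (547), Cyp4s3 (275) and Cyp9b2 (97.3), with 9.38, 12.5 and 6.25% in the replicates, also above the background in replicate 2.

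**Figure D5:**
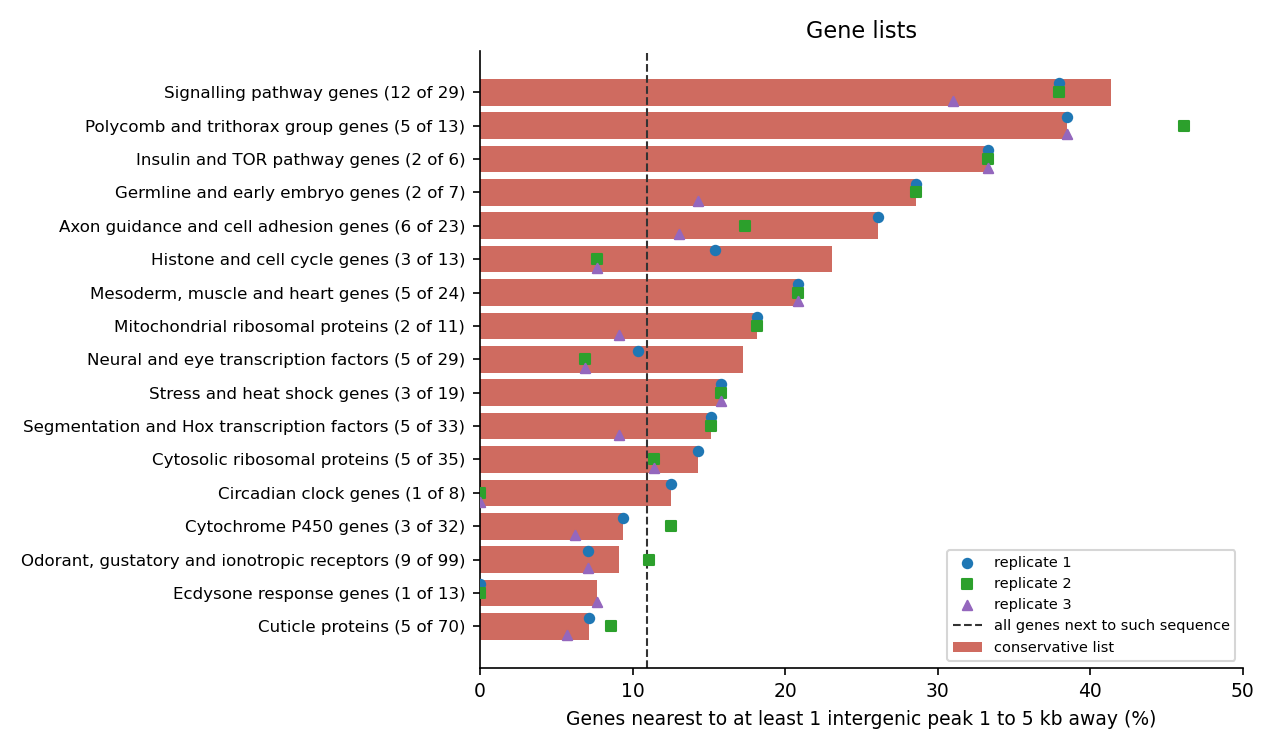
Percent of the genes of each list, among those next to intergenic sequence 1 to 5 kb away, that are the nearest gene of at least 1 intergenic Row peak; bars give the conservative list, points the replicates' own lists and the dashed line all 4938 such genes in the conservative list (11.0%). Lists with fewer than 5 such genes are not drawn, some lists share genes, and the lists were chosen with earlier results of these data known. Signalling and Polycomb and trithorax group genes lie right of the line in every replicate, at 31.0% or more.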

How the data were processed

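The files were peak lists of 3 replicates and 4 series lists, ranked and thresholded, deposited by the authors on assembly dm6. No source used here names the aligner or the peak caller. The files have no header. Their layout is that of narrow peak lists, with a deposited signal value per peak, read as the caller's enrichment. The deposited ranked lists also hold the −log10 of the global irreproducible discovery rate (IDR), by which the conservative list holds peaks at an IDR of 0.01 or less. Per the deposited notes, every list was made with the same control file. Signal was compared within a list only. Depth per sample is unknown.

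Genes and TSSs were from Ensembl release 115, the sequence from the RefSeq FASTA of the same assembly. Summit windows were 100 bp to each side and flanks 1000 bp away. Overlap meant at least 1 bp. Background sequence and genes were counted base by base. Replicate differences were tested by exact two-sided sign flips. Functions were tested on simulated data. Python 3.11.15, pandas 2.3.3 and numpy 2.4.6 were used. The peaks, gene lists and motifs were chosen with earlier results of these data known. Of the list symbols, 7 had no single match and were left out. Named are the 10 strongest peaks, the strongest per arm, 3 inside each distance limit with those just outside, the 5 fullest gaps, and up to 4 genes per list with the strongest peak; hh, wg, upd2, dpp, ft, psq and CG34112 were named beyond this rule, after their values were seen. Sequences from one arm are not shown. One gene that the naming rule takes is not reported here. The control libraries and reads were not analysed here.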

Additional observations from a re-analysis of the deposited data

Results flagged for a closer look

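A signal appeared in data that the comparisons do not use. The ranked list of replicates 1 and 2 held 174 peaks past the IDR threshold that were not in the conservative list, and 13 of these met the rule for intergenic summits 1 to 5 kb from a TSS. The strongest, 1136 bp upstream of tara, had a signal of 2605. Of the 13, those nearest to Rh5, a rhodopsin gene, had values up to 2095, and the one nearest to COX7AL2 had 948. The 13 were not scattered evenly. All those nearest to Rh5 or Hacd1 lay in one stretch, chr2L:12004578-12012662. The one at tara lay in the same gap as the strongest intergenic peak, and the one at COX7AL2 in that of the fourth strongest. The thresholded lists have a further input file that the ranked lists lack, per the deposited notes, and no source used here says what it holds. These peaks entered no count above.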

How the results depend on the processing

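The density ratio, the signal ratio, the upstream excess, the excess of promoter-bound nearest genes, the difference in G+C and the lower share in all 3 replicates kept their direction with the lists of replicates 1 and 3 and of replicates 2 and 3, the pooled list, the stricter IDR, protein-coding gene bodies only and the RefSeq annotation. Gene lists were not run with the RefSeq annotation. Larger moves follow, and their cause was not tested unless stated. At a global IDR of 0.001 or less, which keeps fewer peaks by construction, 410 peaks met the rule, the density ratio was 0.783, the share in all 3 replicates 80.5%, the signal ratio 0.827 and the upstream excess 6.95 points. With the list of replicates 1 and 3 the density ratio was 0.825 and the share in all 3 replicates 55.5%. That share was 36.4% in the pooled list, 40.9% with an overlap of at least 50% and 93.3% against the ranked lists, where overlap with replicates 1 and 2 was largely fixed in advance. In the same order, the whole list's share was 86.5% at the stricter IDR, 65.3% with the list of replicates 1 and 3, 49.4% in the pooled list, 51.9% with the larger overlap and 94.7% against the ranked lists. The difference in G+C was -8.74 points with 50 bp to each side and -7.46 points with flanks 2000 bp away. Without the peaks that overlap a stronger one, an alternative chosen after seeing the data like those for single motifs and gene lists, it was -7.29 points and the signal ratio 0.829.

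Leaving out each replicate's list in turn, the replicate means ranged from 503.5 to 619 peaks, from 0.783 to 0.847 for the density ratio, from 0.803 to 0.859 for the signal ratio, from 4.21 to 5.42 points for the upstream excess, from 3.19 to 7.54 points for promoter-bound nearest genes and from -7.39 to -6.61 points for G+C. With lists that lack replicate 1 or 2, the counts ranged from 620 to 717 peaks, and the share in all 3 replicates from 49.7 to 55.5%, the density ratio from 0.825 to 0.911.

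Of the motifs and lists followed singly, 2 changed sign. Odorant, gustatory and ionotropic receptor genes were 1.37 points above the background in the list of replicates 2 and 3 and 0.388 points above it at an IDR of 0.001 or less, and cuticle protein genes 0.675 points above it in the list of replicates 2 and 3. Others kept their sign but moved by over 1.5 times. With 50 bp to each side the difference between summit and flank was 1.19 points for Motif 6, -9.21 for Pho and -2.999 for the CTCF core, in the pooled list 2.11 points for TAATTA and -2.95 for GAGAG, and with flanks 2000 bp away 0.837 points for the DRE. For TGCATA, the Su(Hw) core, it was 2.72 points in the main setting and 0.632 points in the pooled list. It was 1.37 and 1.67 points without replicate 2 and without replicate 1, and 1.53 points with 50 bp to each side. For the E-box CAGCTG it went from -1.88 to -0.976 points with 50 bp to each side. The excess of Polycomb and trithorax group genes was 16.4 points at an IDR of 0.001 or less, against 27.5 points at the usual threshold. Relative to the background, receptor genes were at -0.346 points in the list of replicates 1 and 3 and -0.862 points in the pooled list, and cuticle protein genes at -2.29 points in the list of replicates 1 and 3 and -2.40 points at the stricter IDR. No paired analysis was possible because there is a single group. Read depth is unknown, and the 3 replicates cannot give a two-sided p under 0.25.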

Other observations

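Motif content was set beside the strength of the intergenic peaks. In 4 bins of the 717 peaks by signal, lowest first, 33.3, 43.0, 38.0 and 46.9% of the windows held TATAAA and 17.2, 16.2, 20.1 and 24.6% held TAATTA, so that neither share went up at every step. Peaks with TAATTA had a median signal of 263, against 210.1 for those without, and those with Motif 7 had 277, against 211. The 36 peaks with the E-box CAGCTG had a median of 161, against 217 for the others. These were not the extremes of the 18 motifs. Medians were lower with TTCNNNGAA (STAT, 158, 33 peaks) and the CTCF core (146, 21 peaks). They were higher with the DRE (322), CAGGTAG (Zelda, 336) and Motif 1 (647), on 8, 3 and 3 peaks. The order of the bins was set by the same signal that decides which weak peaks are listed, and no test was made.

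The share of peaks upstream of their nearest gene was 68.3, 68.7, 74.3 and 72.6% in the same bins, and the share whose nearest gene had a promoter summit was 31.1, 34.1, 28.5 and 31.8%. Of the 717 intervals, 382 had exactly the median width of 436 bp, which was also the median width of the whole list, and the widths ranged from 109 to 1118 bp.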
